A study of Homo sapiens with 4 samples.

Results

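The transcripts of 35 genes of G2 phase and mitosis were followed in Daoy cells, an established human medulloblastoma line, after depletion of PELP1, a scaffold protein that binds nuclear receptors and belongs to a nucleolar complex of ribosome maturation. The genes were taken by symbol from a list of cyclins, mitotic kinases, checkpoint, kinetochore, spindle and cytokinesis genes, and all 35 were found among the 23228 genes of the deposited count files. The comparison was between cells stably expressing a PELP1 shRNA (n = 2 libraries) and cells stably expressing a control shRNA (n = 2 libraries), both made by lentiviral transduction of the same line and grown in serum. The labels do not say whether the 2 libraries of a group came from separate cultures, and they do not say how many PELP1 shRNA sequences were used, and p-values therefore cover no more than the variation among these 4 libraries, possibly technical.

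Entry into mitosis is driven by cyclin B bound to CDK1, which CDC25 phosphatases activate and which Polo-like and Aurora kinases assist. The spindle checkpoint then holds the anaphase-promoting complex (APC/C) in check until every kinetochore is attached, after which cyclins are degraded and the cell divides by cytokinesis. Most of these genes are transcribed late in the cell cycle, under B-MYB, FOXM1 and the MuvB complex, which makes their transcripts a usual readout of how much of a culture is cycling. In bulk RNA a change in the share of cells in G2 or mitosis and a change in transcript per such cell cannot be told apart.

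Libraries held 26760085 to 29221640 counts in genes with the PELP1 shRNA and 24052542 to 26629578 with the control shRNA. PELP1 itself stood at 55.58 and 49.71 TMM-scaled CPM (read counts per common library size, after composition scaling) in the PELP1 shRNA libraries, against 168.2 and 185.2 in the control shRNA libraries, which the quasi-likelihood test of edgeR placed at −1.75 ± 0.05 on the log2 scale (SE, FDR = 1.54e-33). Of 15 markers of the cerebellar granule lineage and medulloblastoma, 11 reached 1 CPM in at least 1 library, while ATOH1, BARHL1 and NEUROD1 had at most 6 counts in any library. The list summed to 288 to 293 CPM with the PELP1 shRNA and 312 to 317 CPM with the control shRNA, and of 12 genes tested 4 rose and 6 fell. GLI1 (log2 fold change 0.80), PAX6 (0.53), OTX2 (0.48) and ZIC2 (0.26) rose. HHIP (−2.61), NHLH1 (−1.52), EOMES (−0.83), GLI2 (−0.71), PTCH1 (−0.51) and BOC (−0.46) fell. Counts in any library were at most 40 for GLI1, 27 for EOMES and 23 for NHLH1. Leukocyte markers summed to 1.38 to 2.77 CPM with the PELP1 shRNA and 1.16 to 1.62 CPM with the control shRNA, and endothelial markers to 5.75 to 6.15 CPM with the PELP1 shRNA and 2.93 to 3.82 CPM with the control shRNA, although CDH5 of that list fell, with 8 and 8 counts in the PELP1 shRNA libraries and 21 and 15 in the control shRNA libraries. Of 4 epithelial markers, KRT18 and KRT8 were abundant, whereas EPCAM had at most 24 counts and CDH1 at most 3 counts in any library. The list summed to 855 to 879 CPM with the PELP1 shRNA and 550 to 562 CPM with the control shRNA, nearly all of it from KRT18 and KRT8. The part of these marker differences in the results below was not tested.

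The mitotic genes did not move as a block. With the PELP1 shRNA 17 of the 35 genes rose, 7 fell and 11 did not pass an FDR of 0.05, a false discovery rate adjusted over all 14972 genes tested. No gene of the list changed by as much as 1.5-fold, whereas 18.6% of all genes tested were called with a change over 1.5-fold. The largest rise was that of CDC25B (34.1%) and the largest fall that of PLK1 (by 27.3%). Of all genes tested, 58.1% were called in either direction, 28.6% higher and 29.5% lower. Among the 6088 genes with a mean level at or above that of the least abundant member, 68.9% were called, 28.9% higher and 40.0% lower. Of these 6088 genes, 529 were called with a change over 1.5-fold. The 68.6% of members called is near the share among genes at or above that level, a set with no upper limit on abundance, while 48.6% of members (17 of 35) were called higher and 7 of 35 lower. The median log2 fold change was 0.08 over the members and 0.0022 over all genes tested, and the median absolute change was 0.15 over the members, 0.26 over all genes and 0.19 over the 6088 genes. The groups did not overlap in 28 of the 35 genes, 80.0%, against 77.7% of all genes and 83.9% of the 6088 genes.

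The balance between rises and falls depended on scaling and on single libraries. With upper-quartile factors 20 members were called higher and 4 lower, and with library size alone 22 were higher and 4 lower, in place of 17 and 7. DESeq2 and the replicate number as a block each gave 15 higher and 6 lower, where DESeq2 called 20.7% of all genes higher and 23.2% lower and the block 26.8% higher and 27.7% lower. Over all genes upper-quartile factors called 33.9% higher and 24.7% lower, and library size alone 37.9% higher and 22.1% lower. Without PELP1 shRNA replicate 2 the count of rises was 11 (23.6% of all genes), and without PELP1 shRNA replicate 1 the count of falls was 4 (25.0% of all genes). Tested against a 1.2-fold change rather than no change, CDC25B, NUSAP1 and KIF23 remained higher and PLK1 and ANLN lower, 5 of 35 genes, whereas 27.6% of all genes passed that test. All genes include those less abundant than any member, and no such share was taken over the 6088 genes alone. The variation between replicates was small, with an estimated biological coefficient of variation of 2.99%. If 10% is assumed in its place, CDC25B was called higher and PLK1 and ANLN lower, beside 14.6% of all genes higher and 14.5% lower. At 20%, edgeR called 0 of the 35 genes and 8.85% of all genes, and 0 of the 35 had an unadjusted p under 0.05.

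**Figure D1:**
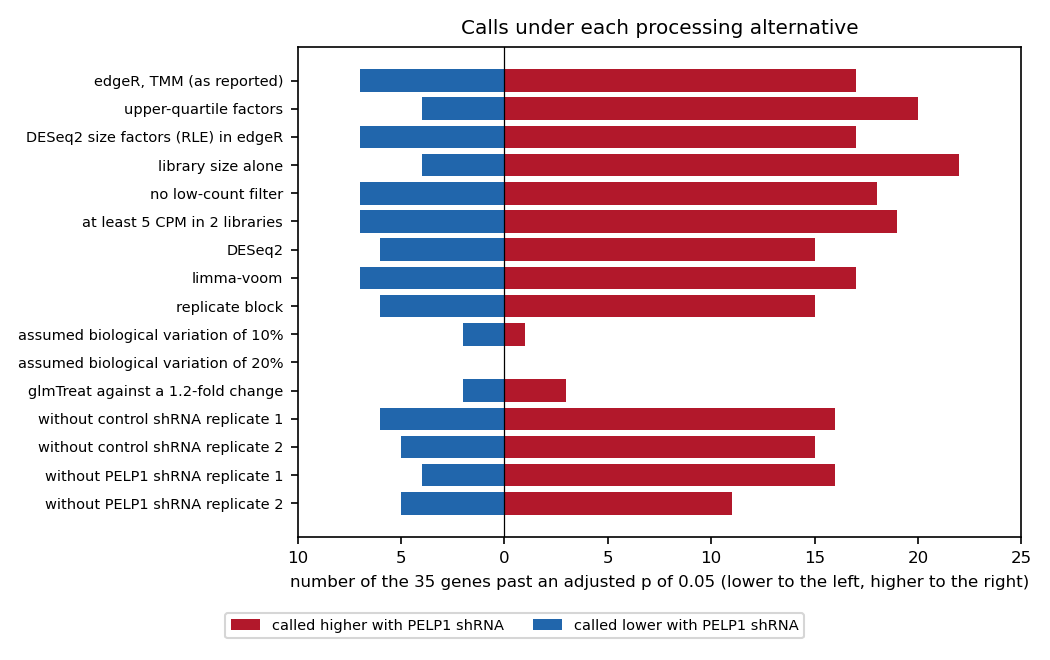
Number of the 35 genes past an adjusted p of 0.05 under each processing alternative, higher with the PELP1 shRNA to the right and lower to the left. The reported fit gives 17 and 7, library size alone 22 and 4, and an assumed biological variation of 20% leaves 0 and 0.

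**Figure D2:**
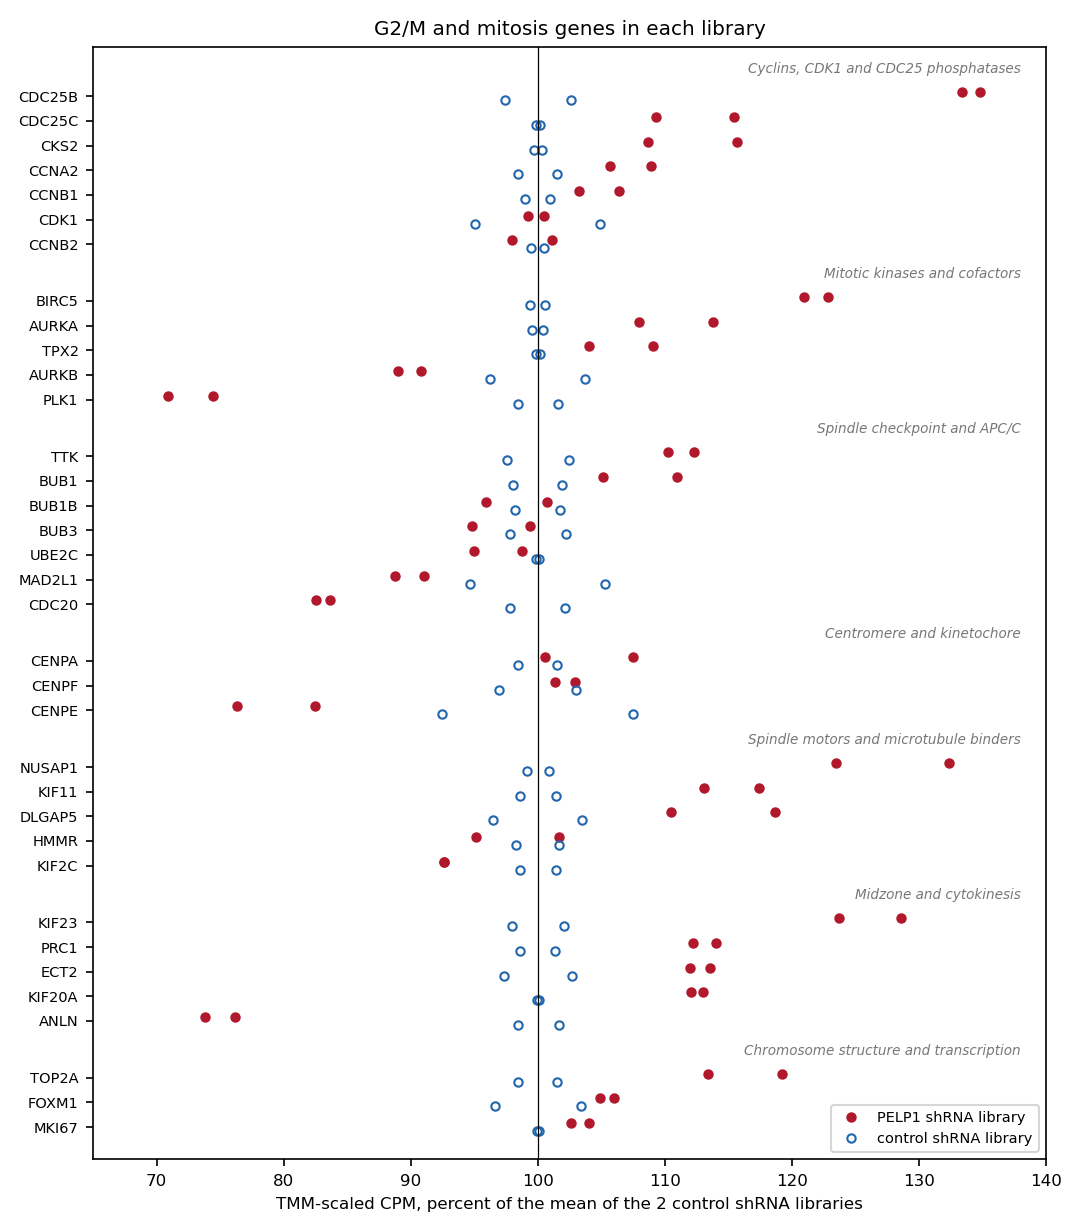
TMM-scaled CPM of each gene in each library, as a percentage of the mean of the 2 control shRNA libraries, grouped by role. Filled points are the PELP1 shRNA libraries and open points the control shRNA libraries. CDC25B, NUSAP1 and KIF23 lie farthest to the right of the control libraries, and PLK1, ANLN and CENPE farthest to the left.

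Promoters were searched for 2 elements that mark late cell cycle genes. These are the core of the cell cycle genes homology region (CHR), TTTGAA, which MuvB complexes bind, and the CCAAT box of NF-Y. Shown are the first 4 genes, in list order, with per-library values given here and TTTGAA from 100 bases before to 50 after the start. MKI67 and ANLN also met this rule but come later in the list. CCAAT was not part of the rule, though all 4 genes shown hold it, and ANLN does not. The 300 bases run from 250 before to 50 after the transcription start (RefSeq, GRCh38.p14, 5′ to 3′ on the strand of the gene). Capitals mark each TTTGAA and CCAAT and their reverse complements TTCAAA and ATTGG.
CDC20 (chr1:43358731-43359030, plus strand): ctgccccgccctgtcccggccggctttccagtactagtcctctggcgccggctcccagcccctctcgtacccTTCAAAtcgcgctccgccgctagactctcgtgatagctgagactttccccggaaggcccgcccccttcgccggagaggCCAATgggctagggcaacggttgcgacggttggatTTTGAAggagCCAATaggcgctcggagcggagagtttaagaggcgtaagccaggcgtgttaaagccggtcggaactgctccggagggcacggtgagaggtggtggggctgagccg
PLK1 (chr16:23678639-23678938, plus strand): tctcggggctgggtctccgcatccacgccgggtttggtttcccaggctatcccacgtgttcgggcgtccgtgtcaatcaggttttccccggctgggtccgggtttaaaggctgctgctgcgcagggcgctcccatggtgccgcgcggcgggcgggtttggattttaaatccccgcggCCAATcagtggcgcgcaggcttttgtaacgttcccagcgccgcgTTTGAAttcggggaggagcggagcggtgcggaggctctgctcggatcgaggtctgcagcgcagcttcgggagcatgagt
KIF23 (chr15:69414099-69414398, plus strand): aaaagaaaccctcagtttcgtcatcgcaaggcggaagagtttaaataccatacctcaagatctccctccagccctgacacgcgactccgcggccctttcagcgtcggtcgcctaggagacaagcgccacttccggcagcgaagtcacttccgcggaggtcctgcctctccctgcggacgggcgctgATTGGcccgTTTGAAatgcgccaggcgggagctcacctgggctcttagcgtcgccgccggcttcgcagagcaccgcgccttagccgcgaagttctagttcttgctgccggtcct
NUSAP1 (chr15:41332631-41332930, plus strand): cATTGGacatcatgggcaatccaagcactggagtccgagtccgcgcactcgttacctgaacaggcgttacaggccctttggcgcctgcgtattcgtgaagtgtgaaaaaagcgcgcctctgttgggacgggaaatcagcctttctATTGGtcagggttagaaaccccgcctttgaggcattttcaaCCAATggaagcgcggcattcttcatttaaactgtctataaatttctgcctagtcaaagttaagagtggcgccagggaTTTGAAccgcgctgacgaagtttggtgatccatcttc
The TTTGAA nearest to the start began 65 bases before the start in CDC20, 29 before it in PLK1, 55 before it in KIF23 and 13 after it in NUSAP1. CDC20 and PLK1 fell, and KIF23 and NUSAP1 rose.

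Cyclins, CDK1 and its activating phosphatases either rose or did not pass the test. CDC25B, the phosphatase that starts CDK1 activation at the centrosome, had 304.2 and 307.3 CPM with the PELP1 shRNA, against 222.1 and 233.9 CPM with the control shRNA. Both PELP1 shRNA libraries were above both control libraries, and the log2 fold change was 0.42 ± 0.04 (SE, FDR = 3.14e-15). The other mitotic phosphatase gene, CDC25C, rose by 0.17 (log2 fold change, FDR = 0.00899), as did CKS2, a small CDK-binding subunit (0.16, FDR = 0.00131), and the cyclin A gene CCNA2 (0.10, FDR = 0.0369). These 3 calls were narrow. CDC25C (adjusted p = 0.136), CKS2 (0.0911) and CCNA2 (0.251) missed the threshold without PELP1 shRNA replicate 2. CCNA2 also missed it without PELP1 shRNA replicate 1 (0.0635), without control replicate 2 (0.189) and with the replicate number as a block (0.0965), and with DESeq2 both CDC25C (0.0577) and CCNA2 (0.111) missed it.

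The core mitotic kinase and its partners were nearly level. CCNB1, the main mitotic cyclin, had 532.0 and 548.0 CPM with the PELP1 shRNA and 520.2 and 509.9 CPM with the control shRNA. The groups did not overlap, but the difference of 0.07 ± 0.03 (log2, SE) did not pass (FDR = 0.0867). CCNB1 was called higher under upper-quartile scaling (0.12, adjusted p = 0.00202), raw library-size scaling (0.16, adjusted p = 3.74e-05) and a 5 CPM filter (0.08, adjusted p = 0.029). CDK1 had 155.3 and 153.3 CPM with the PELP1 shRNA, inside the 162.1 and 146.9 CPM of the control libraries, with a log2 fold change of −0.0015 ± 0.04 (SE, FDR = 0.98). An interval of 1.96 SE around it ran from −0.09 to 0.08. CCNB2, a second cyclin B, stood at −0.01 (FDR = 0.901). The sign of both CDK1 and CCNB2 turned positive with upper-quartile factors (0.05 each) and with library size alone (0.09 and 0.08), and it turned in some leave-one-out fits.

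The mitotic kinases split. PLK1, the Polo-like kinase of mitotic entry, spindle assembly and cytokinesis, had 170.0 and 162.0 CPM with the PELP1 shRNA, against 224.8 and 232.0 CPM with the control shRNA. It was the lowest of the 35 relative to control, with a log2 fold change of −0.46 ± 0.04 (SE, FDR = 1.01e-15). In the GENCODE annotation 611 of its 4760 exonic bases overlap antisense genes, whose reads cannot be told apart in an unstranded count. AURKA, the Aurora kinase of centrosomes and spindle poles, rose, with 166.4 and 175.4 CPM with the PELP1 shRNA, against 154.7 and 153.4 CPM with the control shRNA (0.15 ± 0.04, SE, FDR = 0.00162). TPX2, which recruits and activates AURKA on the spindle, rose by 0.09 (FDR = 0.0214). AURKB, the Aurora kinase of the chromosomal passenger complex, fell, with 96.14 and 98.04 CPM with the PELP1 shRNA, against 103.9 and 112.0 CPM with the control shRNA (−0.15 ± 0.05, SE, FDR = 0.00388). BIRC5 (survivin), a subunit of the same complex as AURKB, rose, with 273.9 and 269.7 CPM with the PELP1 shRNA, against 221.7 and 224.3 CPM with the control shRNA (0.29 ± 0.04, SE, FDR = 1.7e-09). In these 5 genes the groups did not overlap.

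Of the kinase group, PLK1 and BIRC5 kept their calls in every leave-one-out fit and under each scaling. The others were less secure. AURKA did not pass when PELP1 shRNA replicate 2 was left out (adjusted p = 0.0891). TPX2 missed the threshold without that library (0.321), without control replicate 1 (0.0529) or control replicate 2 (0.0659), and with the replicate block (0.078). The AURKB call was absent without PELP1 shRNA replicate 1 (0.0626) or control replicate 2 (0.135), under upper-quartile scaling (0.0584) and under library-size scaling (0.237).

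**Figure D3:**
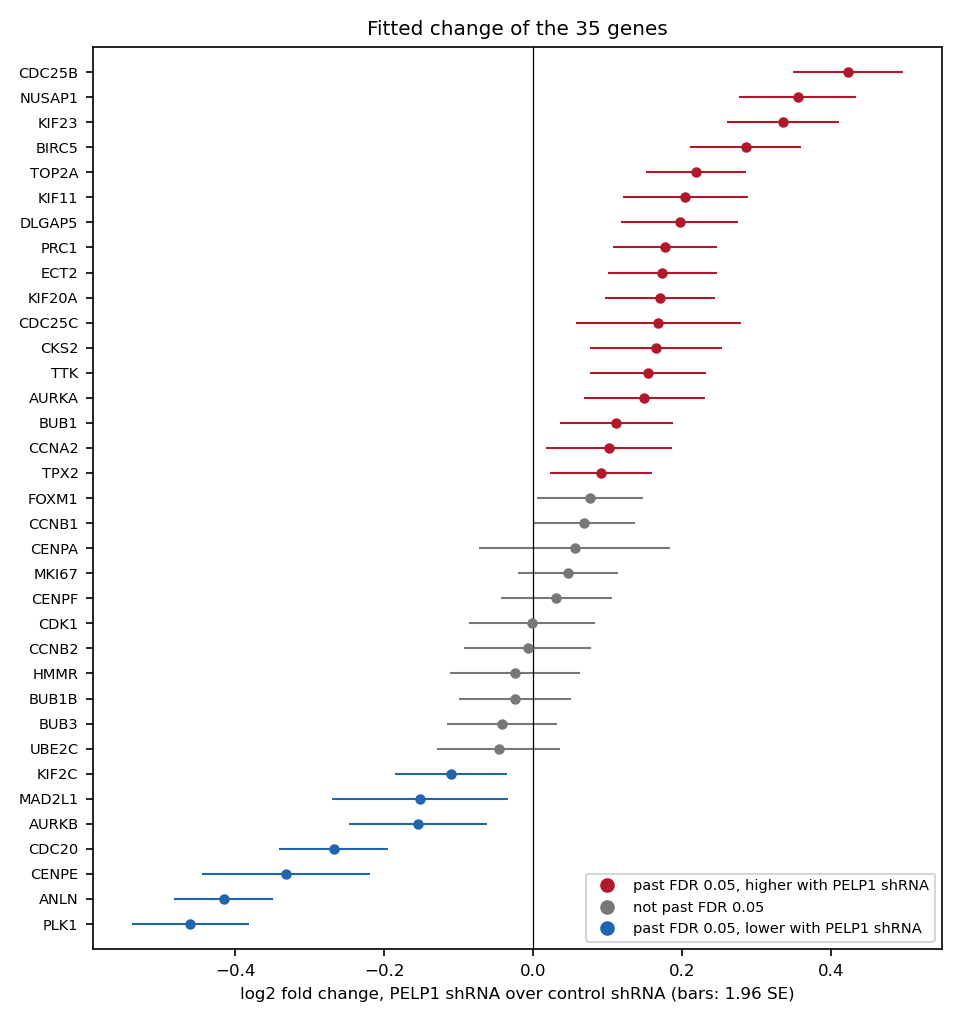
Fitted log2 fold change of each gene, PELP1 shRNA over control shRNA, with bars of 1.96 SE. Red genes were called higher, blue genes lower and grey genes did not pass an FDR of 0.05. The points run from −0.46 for PLK1 to 0.42 for CDC25B.

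Spindle checkpoint and APC/C genes showed rises, falls and near-level genes in similar number, 2, 2 and 3 of 7. CDC20, the APC/C activator that the checkpoint restrains, had 256.6 and 260.1 CPM with the PELP1 shRNA, against 304.3 and 317.6 CPM with the control shRNA. The groups were well apart, and the log2 fold change was −0.27 ± 0.04 (SE, FDR = 6.7e-09). MAD2L1, the checkpoint protein that binds CDC20, fell by 0.15 (log2, FDR = 0.0269), but did not pass when control replicate 1 was left out (−0.08, adjusted p = 0.39) or without a PELP1 shRNA library (0.0688 without replicate 1 and 0.141 without replicate 2). Nor did it pass under upper-quartile scaling (adjusted p = 0.155), library-size scaling (0.387), DESeq2 (0.122) or the replicate block (0.0518). The kinase genes of the checkpoint rose slightly, TTK by 0.15 (FDR = 0.000674) and BUB1 by 0.11 (FDR = 0.0107). BUB1 did not pass when PELP1 shRNA replicate 2 was left out (adjusted p = 0.241), nor without control replicate 2 (0.114).

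The remaining checkpoint genes, BUB1B (−0.02, FDR = 0.613), BUB3 (−0.04, FDR = 0.349) and the APC/C ubiquitin-conjugating enzyme gene UBE2C (−0.05, FDR = 0.354), did not pass. All 3 had positive values with library size alone (0.07, 0.05 and 0.04) and with upper-quartile factors (0.03, 0.01 and 0.01). UBE2C, BUB3, BUB1 and CDC20 are among 10 members with an annotated pseudogene of their own name, and reads that fit both places may be missing from their counts or split between them.

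Among centromere and kinetochore genes, CENPE, the kinesin that moves chromosomes to the spindle equator, fell. It had 61.54 and 66.51 CPM with the PELP1 shRNA and 86.69 and 74.58 CPM with the control shRNA, a log2 fold change of −0.33 ± 0.06 (SE, FDR = 2.93e-06). The control libraries differed from each other by more than the PELP1 shRNA libraries did, and the value was −0.22 without control replicate 1 and −0.44 without control replicate 2. CENPA, the histone H3 variant of centromeres, stood at 0.06 (FDR = 0.478) and the large kinetochore protein gene CENPF at 0.03 (FDR = 0.503), each with overlapping groups. With library size alone both were called higher (CENPA adjusted p = 0.0484 and CENPF adjusted p = 0.00409), and CENPF stood at −0.01 without control replicate 2.

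Spindle motors and microtubule binders rose in 3 of 5 cases. NUSAP1, which bundles microtubules near chromosomes, had 218.7 and 234.4 CPM with the PELP1 shRNA, against 178.6 and 175.6 CPM with the control shRNA (log2 fold change 0.36 ± 0.04, SE, FDR = 1.62e-11). In the annotation 3133 of its 3608 exonic bases are shared with other genes on the same strand, so its count may be partial. KIF11, the kinesin that pushes spindle poles apart, rose by 0.20 (FDR = 3.97e-05), and DLGAP5, which stabilises kinetochore fibres, also by 0.20 (FDR = 2.46e-05). KIF2C, a kinesin that takes microtubules apart at centromeres, fell by 0.11 (FDR = 0.0114). That call was lost without PELP1 shRNA replicate 1 (adjusted p = 0.0724) or 2 (0.0657), without control replicate 2 (0.0941), under upper-quartile scaling (0.198) and under library-size scaling (0.667). HMMR, a spindle protein and hyaluronan receptor, stood at −0.02 (FDR = 0.664), and at 0.03 and 0.07 under upper-quartile factors and library size alone.

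In the group of midzone and cytokinesis genes all 5 passed, 4 upward and 1 downward. KIF23, the motor subunit of centralspindlin, had 277.3 and 288.2 CPM with the PELP1 shRNA and 228.7 and 219.5 CPM with the control shRNA (log2 fold change 0.34 ± 0.04, SE, FDR = 1.87e-11). The midzone bundling gene PRC1 rose by 0.18 (FDR = 1.87e-05), ECT2, an exchange factor that sets the division plane, by 0.17 (FDR = 6.21e-05), and the midzone kinesin gene KIF20A by 0.17 (FDR = 9.15e-05). Of 5523 exonic bases of PRC1, 3181 are shared with another gene on the same strand and 1892 overlap its antisense RNA gene, so its count may be partial too. ANLN, the scaffold of actin, myosin and septins in the contractile ring, went the other way. It had 759.8 and 783.9 CPM with the PELP1 shRNA, against 1046 and 1013 CPM with the control shRNA, a fall of 25.0% (log2 fold change −0.42 ± 0.03, SE, FDR = 8.3e-17). ANLN was the most abundant of the 5 by CPM, and their summed level was 2014 and 2057 CPM with the PELP1 shRNA and 2156 and 2089 CPM with the control shRNA. These 5 calls held in each leave-one-out fit and under each scaling.

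Of the last 3 members, linked to chromosome structure and transcription, 1 rose and 2 did not pass. TOP2A, the topoisomerase that untangles sister chromatids, rose, with 1261 and 1326 CPM with the PELP1 shRNA, against 1129 and 1095 CPM with the control shRNA (log2 fold change 0.22 ± 0.03, SE, FDR = 1.07e-07). MKI67, the gene of the Ki-67 antigen that coats mitotic chromosomes, had 567.7 and 575.2 CPM with the PELP1 shRNA, against 553.6 and 552.6 CPM with the control shRNA. The groups did not overlap, yet the difference of 0.05 ± 0.03 (log2, SE) did not pass (FDR = 0.241). FOXM1, a transcription factor that activates many of the other members, had 394.5 and 398.6 CPM with the PELP1 shRNA, against 363.2 and 388.8 CPM with the control shRNA (0.08 ± 0.04, SE, FDR = 0.0676). FOXM1 was called higher without control replicate 2 (0.13, adjusted p = 0.00863), under upper-quartile scaling (0.13, adjusted p = 0.00166), under library-size scaling (0.17, adjusted p = 3.15e-05), with no low-count filter (adjusted p = 0.0493) and with the 5 CPM filter (adjusted p = 0.0222). The MKI67 difference passed under upper-quartile scaling (adjusted p = 0.00982) and library-size scaling (adjusted p = 0.000291). All members together summed to 9679 and 9972 CPM with the PELP1 shRNA and 9574 and 9413 CPM with the control shRNA.

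Ratios of raw counts within a library do not depend on scaling, and they show the same unequal changes. These pairs were chosen after the values were seen and were not tested. There were 1.79 and 1.90 CDC25B reads per PLK1 read with the PELP1 shRNA and 0.988 and 1.01 with the control shRNA. CCNB1 reads per PLK1 read numbered 3.13 and 3.38 with the PELP1 shRNA and 2.31 and 2.20 with the control shRNA. In neither pair did the groups overlap. AURKB reads per AURKA read were 0.578 and 0.559 with the PELP1 shRNA and 0.672 and 0.730 with the control shRNA. CCNB1 reads per CCNA2 read were close together though without overlap, 3.78 in both PELP1 shRNA libraries and 3.85 and 3.90 in the control shRNA libraries. MKI67 reads per TOP2A read were 0.45 and 0.434 with the PELP1 shRNA and 0.491 and 0.505 with the control shRNA. Only CDK1 reads per CCNB1 read overlapped, with 0.292 and 0.28 with the PELP1 shRNA and 0.312 and 0.288 with the control shRNA.

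Levels between genes were compared per kilobase of annotated exons. CCNB1 was at the top, with 222 CPM per kb with the PELP1 shRNA and 212 with the control shRNA, followed by CKS2 with 204 CPM per kb with the PELP1 shRNA and 182 with the control shRNA. CENPE was the lowest, with 6.45 CPM per kb with the PELP1 shRNA and 8.12 with the control shRNA, 26.1-fold below CCNB1 in control cells. ANLN had 129 CPM per kb with the PELP1 shRNA and 172 with the control shRNA, and PLK1 had 34.9 with the PELP1 shRNA and 48.0 with the control shRNA. The exon length counts every annotated isoform, so genes with rarely used exons appear low. Of the other genes that changed most, CDC25B (58.4), NUSAP1 (49.1) and KIF23 (34.1 CPM per kb with the control shRNA) lay, like PLK1, nearer the median of 49.1 than ANLN did.

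**Figure D4:**
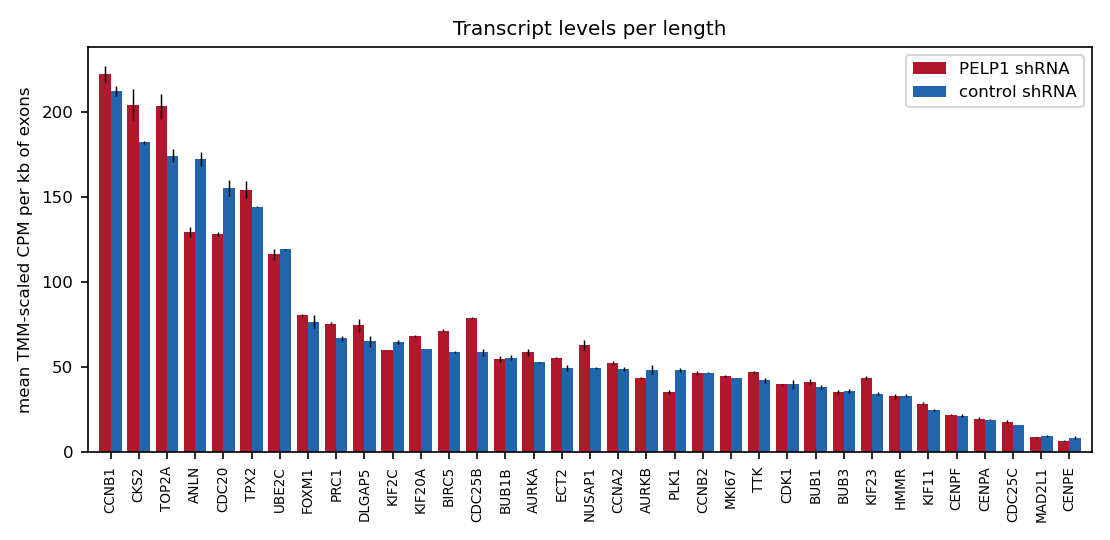
Mean TMM-scaled CPM per kilobase of exons with the PELP1 shRNA (red) and the control shRNA (blue), ordered by the control level, with bars of 1 SD over 2 libraries. CCNB1, CKS2, TOP2A, ANLN and CDC20 are the most abundant in control cells and CENPE the least abundant.

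Other genes of the same machinery also moved both ways. Over 11 further lists of cell cycle genes, 207 genes were tested, of which 72 rose and 61 fell. Their median log2 fold change was 0.01, and 74 did not pass. The 64.3% called may be read beside 58.1% of all genes, 28.6% higher and 29.5% lower. Among the 6088 genes at or above the level of the least abundant member, 68.9% were called, 28.9% higher and 40.0% lower. Some of the further genes lie below that level. Condensin and cohesin genes rose in 12 of 20 cases and fell in 2 (median 0.14), with the cohesin-associated PDS5B at 0.35 (FDR = 1.9e-07) and the condensin ATPase gene SMC4 at 0.28 (FDR = 3.5e-09). Genes of the MuvB, DREAM and NF-Y complexes, which regulate late cell cycle promoters, rose in 8 of 16 cases and fell in 3 (median 0.17). The pocket protein gene RBL2 stood at 0.40 and the NF-Y subunit gene NFYB at 0.31. The 3 that fell were E2F4 (−0.26), E2F5 (−0.20) and another NF-Y subunit gene, NFYA (−0.14, FDR = 0.00963). The NF-Y subunit gene NFYC (−0.09, FDR = 0.203) did not pass. Mitotic entry and exit regulators rose in 7 and fell in 4 of 20 cases, with CCNG1, a p53-induced cyclin, at 0.76 and CCNG2 at 0.49.

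APC/C subunits and regulators rose in 6 and fell in 3 of 18 cases, and its subunit genes CDC16 (0.55) and ANAPC5 (−0.53) moved apart. CDC16 had 95.02 and 98.76 CPM with the PELP1 shRNA, against 67.73 and 64.59 CPM with the control shRNA. ANAPC5 had 129.1 and 128.7 CPM with the PELP1 shRNA, against 186.8 and 185.5 CPM with the control shRNA. Other checkpoint and passenger complex genes rose in 4 and fell in 4 of 14 cases, with the centrosomal kinase gene NEK2 at 0.46 and KNTC1, which recruits checkpoint proteins to kinetochores, at −0.36. Inner and outer kinetochore genes rose in 8 and fell in 7 of 27 cases, with the centromere assembly gene MIS18A at −0.44 and CENPO at −0.42.

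In a list of 10 other kinesin genes, not all of them specific to mitosis, 3 rose and 4 fell, with KIF14, a cytokinesis kinesin, at −0.48 and KIF3B at −0.45. Other cytokinesis genes rose in 5 and fell in 6 of 14 cases. There the citron kinase gene CIT, which acts in cytokinesis like ANLN, stood at −0.43. Spindle pole and centrosome genes rose in 5 and fell in 10 of 22 cases, with the pericentriolar scaffold gene PCNT at −0.71 and the spindle protein gene CKAP2 at 0.56.

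The lists that precede mitosis in the cycle gave their own values. DNA replication and G1/S genes rose in 10 and fell in 12 of 35 cases (median −0.05), with the helicase subunit gene MCM3 at 0.49 and the origin recognition gene ORC6 at −0.54. Of 11 G1 cyclin and CDK inhibitor genes tested, 4 rose and 6 fell. CCND1, the G1 cyclin D1, had 407.7 and 406.0 CPM with the PELP1 shRNA, against 703.7 and 702.8 CPM with the control shRNA (log2 fold change −0.79, FDR = 8.94e-30). CDKN1A, the p21 inhibitor of CDKs, had 41.39 and 42.38 CPM with the PELP1 shRNA, against 73.76 and 78.23 CPM with the control shRNA (−0.86, FDR = 3.84e-21). Both changes were larger than that of any of the 35 mitotic genes. With library size alone 101 of the further genes were called higher and 41 lower, and with upper-quartile factors 86 and 46, in place of 72 and 61. Over all genes, library size alone called 37.9% higher and 22.1% lower, and upper-quartile factors 33.9% and 24.7%.

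Promoters were available for 28 of the 35 members. BUB3, UBE2C, TTK, FOXM1, TPX2, AURKA and BIRC5 had none in the table. The first listed start of each gene was used. TTTGAA, on either strand, lay between 100 bases before and 50 after the start in 17 of 28 members (60.7%), against 6.91% of 27305 promoters of all genes. CCAAT, on either strand, lay there in 18 of 28 (64.3%), against 22.0% of all promoters. Neither motif contains the other, and 17 members held both somewhere in the 300 bases. CDC25C and CDK1 have further listed starts with TTTGAA nearby, and with any start counted 19 members held it.

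Genes with and without these letters moved in both directions. Of the 17 with TTTGAA near the start, 7 rose, 4 fell and 6 did not pass (median log2 fold change 0.05), and of the 11 without it, 6 rose, 3 fell and 2 did not pass (median 0.10). Of the 18 with CCAAT near the start, 11 rose, 2 fell and 5 did not pass (median 0.14), and of the 10 without it, 2 rose, 5 fell and 3 did not pass (median −0.07). Over the whole 300 bases, CCAAT was held by 22 members, of which 11 rose, 4 fell (PLK1, CDC20, AURKB and MAD2L1) and 7 did not pass, and of the 6 without it 2 rose, 3 fell and 1 did not pass. No test was made of these splits, and a match of letters is not a measured binding site. The calls of all genes were not split by motif, so the splits cannot be called particular to these members. Whatever the promoter, 28.6% of all genes tested were called higher and 29.5% lower. CDC25B, the gene with the largest rise, held neither motif in the window used and no TTTGAA at any of its 4 listed starts, and ANLN held TTTGAA but not CCAAT.

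**Figure D5:**
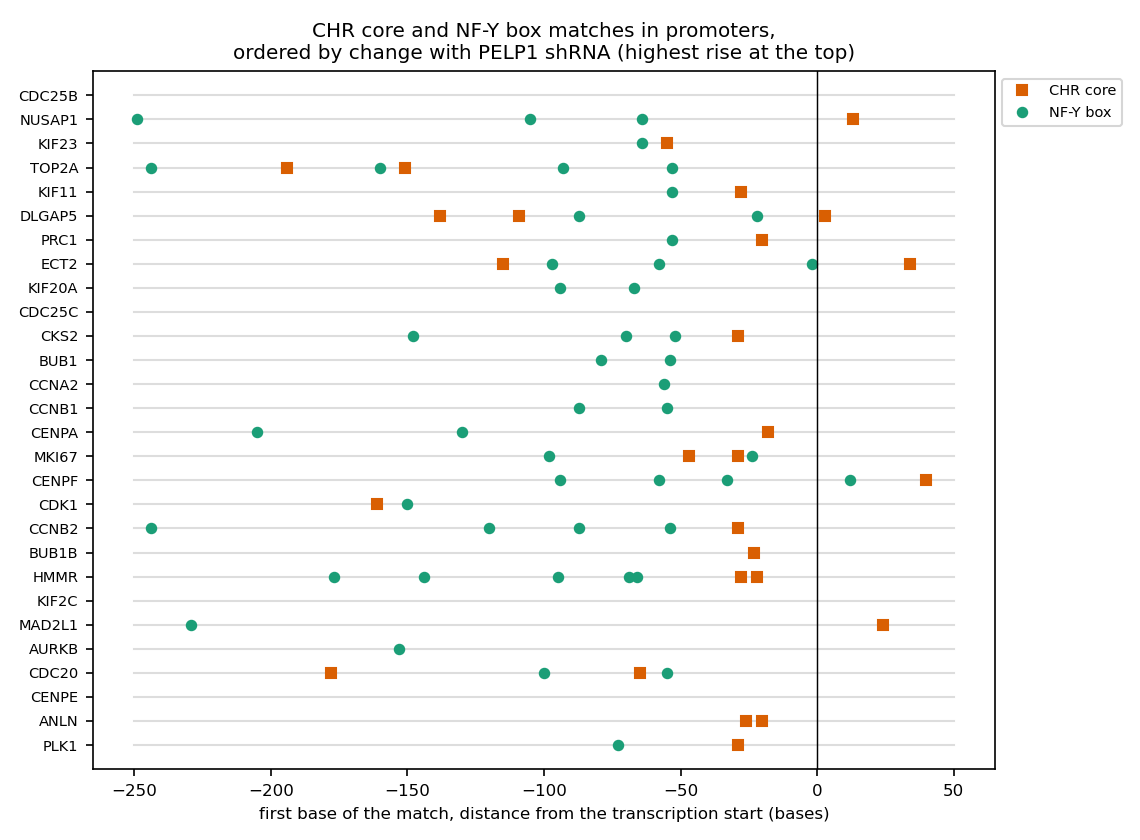
First base of each match of the CHR core (orange squares) and the NF-Y box (green circles) relative to the transcription start, for 28 members with a promoter entry, ordered from the largest rise with the PELP1 shRNA at the top to the largest fall at the bottom. Matches gather within 100 bases before the start. The CHR core lay between 100 bases before and 50 after it in 7 genes that rose and 4 that fell. The NF-Y box lay there in 11 genes that rose and 2 that fell (CDC20 and PLK1). It was absent there in 2 that rose and 5 that fell. The split was not tested, and it was not made over all genes.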

How the data were processed

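RNA from 4 Daoy libraries was sequenced as 50 bp single-end reads after TruSeq total RNA preparation, per the labels' protocols. Per the submitters' processing notes, the authors aligned reads to hg19 with TopHat2 2.0.8b and counted them per gene with HTSeq. The strand setting was not given in the sources used here, nor was the annotation. Deposited values are raw counts, given by gene symbol. The 5 rows that name no gene (38.8% to 40.5% of each file total) were left out.

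Counts were tested with the quasi-likelihood test of edgeR 4.0.16 (R 4.3.3), with robust dispersions, TMM scaling and filterByExpr, which kept 14972 of 23228 genes and all 35 members. The model held the shRNA group, tests were two-sided, and Benjamini-Hochberg adjustment ran over all genes tested (threshold 0.05). SEs were derived from the F statistic. Other scalings and filters, DESeq2 1.42.0, limma-voom (limma 3.58.1), a replicate block, each replicate left out, glmTreat and assumed variation were alternatives.

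Chi-square per degree of freedom was 2.374 within the PELP1 shRNA pair and 2.469 within the control pair, which exceeds counting noise, and no libraries were merged. Coordinates of exons came from GENCODE v44 lifted to GRCh37, which is the assembly of hg19, and promoters from RefSeq (GRCh38.p14). The fit was tested on simulated data. The members, lists and alternatives were chosen with earlier results of these data known. Values in every library are given for the 4 members with the largest called change in each direction, the most changed member of each role and CCNB1, CDK1, FOXM1, MKI67, AURKA and AURKB. Of each further list, the 2 most changed called genes with a mean of at least 5 CPM are named, except 1 that is not reported here.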

Additional observations from a re-analysis of the deposited data

How the results depend on the processing

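The reported counts of members called higher and lower were 17 and 7. Members called lower numbered 4 with upper-quartile factors and 4 with library size alone. The members' median log2 fold change was 0.1293 and 0.1663 under these scalings, in place of 0.0762, while the median of all genes was 0.0553 and 0.0922, in place of 0.0022. Leaving out 1 library gave 11 to 16 members higher and 4 to 6 lower. The replicate block gave 15 and 6, and it changed no other call than those of CCNA2, TPX2 and MAD2L1. Deviations of same-numbered libraries from their group means correlated at −0.036 across genes. With 2 libraries a group, this value cannot tell whether same-numbered libraries shared a culture or a run. DESeq2 also gave 15 and 6.

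Against a 1.2-fold change 3 members were higher and 2 lower, beside 2021 and 2106 of all genes and 15 and 17 of the further cell cycle genes. An assumed variation of 10% left 1 and 2 members, 2187 and 2176 of all genes and 15 and 17 further genes. At 20% the counts in edgeR were 0 and 0 members, 685 and 640 of all genes and 0 and 1 further genes, and 0 members had an unadjusted p under 0.05.

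Signs turned among members that had not passed, and among no others. With upper-quartile factors the log2 values were 0.0515 for CDK1, 0.0460 for CCNB2, 0.0290 for BUB1B, 0.0290 for HMMR, 0.0111 for BUB3 and 0.0069 for UBE2C. With library size alone they were 0.0884 for CDK1, 0.0829 for CCNB2, 0.0658 for BUB1B, 0.0659 for HMMR, 0.0480 for BUB3 and 0.0438 for UBE2C. CDK1 stood at 0.0060 with no filter, 0.0145 with the 5 CPM filter and 0.0010 with limma-voom, and CCNB2 at 0.0003 with no filter and 0.0089 with the 5 CPM filter. Leaving out 1 library gave −0.0127 to 0.0739 for CENPF, −0.0713 to 0.0686 for CDK1, −0.0313 to 0.0172 for CCNB2, −0.0610 to 0.0125 for BUB1B and −0.0739 to 0.0253 for HMMR. The cause of these shifts was not tested. With 2 libraries a group, differences of a few percent lie near the limit of the test.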
